A study of Mus musculus with 12 samples.

Results

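Myeloid-derived suppressor cells (MDSCs) that carried drug-free nanoparticles (NPs) on their surface, MDSC-NP-Blk, were compared with unmodified MDSCs across the genes of a bulk RNA-seq count table. The comparison used 8 of the 12 libraries, 4 of MDSC-NP-Blk and 4 of MDSC, as their titles give them, and all 17676 of the 35303 listed gene symbols that had at least 2 counts over the 12 libraries. The other 4 libraries, of cells with rapamycin-loaded NPs (CITED), entered the fit and served only to show where a gene differed again when the NPs held the drug. All libraries came from wild-type mouse cells and all were kept with IL-6, so the comparison holds no group without this cytokine. According to the methods, bone marrow of young adult female C57BL/6 mice was cultured with IL-6 and GM-CSF, and CD11b+Gr1+ cells were purified with a kit. The same methods state that cells to be conjugated received an azido sugar during culture, that NPs of PLGA, mPEG-PLGA, and PLGA-PEG-DBCO were attached by click chemistry under rotation, and that all groups then spent a further day with IL-6. Whether the unmodified cells also received the sugar or the rotation is not stated, so effects of the particle, the sugar, and the handling cannot be told apart. The tissue label names the CNS, whereas the methods describe a bone marrow culture. Of the markers used for the central nervous system, Gfap, Aqp4, Rbfox3, Snap25, and Sall1 were at 0 counts in all 8 libraries, the whole list (led by Mbp) summed to 144 to 164 CPM (counts scaled to a common library total), and the granulocytic list (led by S100a9, S100a8, and Ltf) reached 35522 to 42767 CPM.

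MDSCs are immature granulocytes and monocytes that restrain T cells, among other means by depleting arginine, by nitric oxide, by prostaglandins, and by inhibitory ligands. The paper reports inefficient uptake of the NPs by MDSCs without azido groups and names limited phagocytic activity as the likely reason. A particle that touches a myeloid cell can meet pattern recognition receptors. Of these, CD14 and the Toll-like receptors signal through NF-kB and MAP kinases to chemokine, cytokine, and immediate early genes. PLGA is a polyester that phagocytic cells can take up into endosomes and lysosomes and that is hydrolyzed to lactic and glycolic acid. The question that this comparison addresses is what conjugation of an empty carrier did to the transcriptome of the cells.

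The 8 libraries held 20604809 to 37855478 counts each, and total counts did not separate the groups (two-sided exact permutation test, p = 0.743, n = 4 and 4). Other properties did. The TMM library factor was 1.12 to 1.15 in MDSC and 0.938 to 0.947 in MDSC-NP-Blk, the 10 most abundant genes took 8.72 to 9.23% and 10.6 to 10.8% of counts, and mitochondrially encoded genes took 1.88 to 2.13% and 1.50 to 1.68%. For each of these the exact permutation p was 0.0286, the smallest that 4 against 4 libraries allow. Expression relative to the mean over libraries also varied with transcript length: Spearman's rho across 10519 genes was 0.217 to 0.347 in the MDSC libraries and −0.421, −0.046, 0.092, and −0.245 in MDSC-NP-Blk replicates 1 to 4. Replicates 1 and 4 of MDSC-NP-Blk thus lay below replicates 2 and 3, and counts of called genes without both are given for the lists on cytokines, proliferation, and ribosomes. The study describes its replicates as biologically independent. Whether they were separate animals or separate cultures of 1 marrow is not stated, and the p-values measure the spread between these libraries.

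Between MDSC-NP-Blk and MDSC, 838 genes (4.74% of those tested) were called, that is, they had an adjusted p-value below 0.05 (edgeR's quasi-likelihood test, Benjamini-Hochberg) and a log2 difference of at least 1 in size. Of these, 333 (1.88%) were higher and 505 (2.86%) lower in MDSC-NP-Blk. Without the fold limit, 3522 genes (19.9%) rose and 3293 (18.6%) fell, words used below for any gene with an adjusted p-value under 0.05 in this test. The 4 libraries of MDSC-NP-Blk all lay above the 4 of MDSC for 3207 genes (18.1%) and all below for 3077 (17.4%), which are the shares to set beside each statement on overlap. Called genes were taken from the gene lists by lowest p, so their lack of overlap is no separate support. Among the 10600 genes with a mean normalized count above 50, 210 were called higher and 247 lower (4.31% together), 31.9% rose, and 28.4% fell. Their median log2 difference was 0.0008, and that of all genes tested was −0.03. Most members of the gene lists have a mean above 50, so the shares of these genes belong beside the counts of each list. The plot of differences by level shows many called genes near the limit, and 143 of the 838 passed a test against the limit itself. The split depends on the scale. With library size alone in place of TMM factors, 1206 genes were called, 146 higher and 1060 lower, and the median of all genes moved by −0.26 to −0.29. The medians of 17 of the 47 gene lists then changed sign, and the counts for these are given beside the main ones. Of the 127 named genes that were called, 32 lost the call on that scale and 22 with a correction for transcript length.

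**Figure D1:**
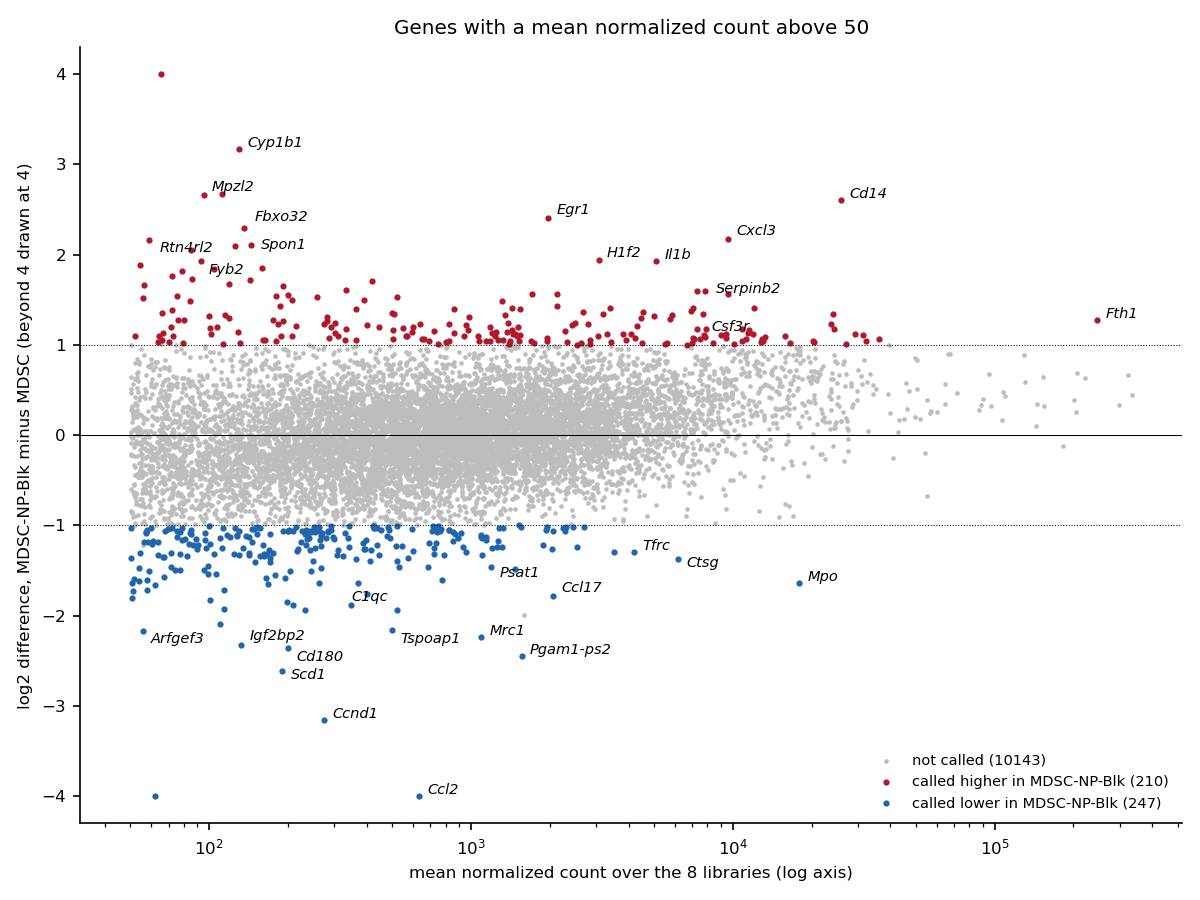
Each point is a gene with a mean normalized count above 50, placed by that mean (log axis) and by its log2 difference between MDSC-NP-Blk and MDSC. Red points were called higher (210), blue points called lower (247), and gray points not called, dotted lines mark a difference of 1, and points beyond 4 in size are drawn at the edge.

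The largest rises were in genes of different functions. Cyp1b1 (chr17:80008966-80022532 on the minus strand of GRCm39, the build of every position given), a cytochrome P450 that is a target of the aryl hydrocarbon receptor, had normalized counts of 28.3, 24.7, 39.6 and 9.06 against 235, 196, 279 and 228, where the values before “against” are MDSC replicates 1 to 4 and those after it MDSC-NP-Blk replicates 1 to 4, as throughout. No library of either group reached into the range of the other, and the log2 difference was 3.17 (SE 0.199, adjusted p = 4.5e-15, edgeR). Cd14, the co-receptor that hands lipopolysaccharide to Toll-like receptors, counted 7153, 7686, 7031 and 7279 against 43336, 46518, 46460.4 and 41140.0. It was 6.09-fold higher at a level that placed it among the abundant genes of these cells, and the groups stood far apart (log2 difference 2.61, SE 0.0470, adjusted p = 9.1e-30). Mpzl2, which encodes an adhesion protein of the immunoglobulin family, rose from 25.9 ± 5.38 to 165 ± 34.4 (mean ± SD of normalized counts, n = 4 each, as in all such pairs below). Fbxo32, a ubiquitin ligase component known from muscle wasting, rose from 45.5 ± 11.4 to 226 ± 10.5, and Spon1, an extracellular matrix protein, from 54.2 ± 9.21 to 234 ± 8.30. Rtn4rl2, a Nogo receptor homolog, rose from 47.2 ± 5.43 to 204 ± 26.4. H1f2, a linker histone gene, rose from 1266 ± 128 to 4879 ± 783, and 11.4% of its 31-base words also occur in transcripts of other genes. Fyb2, an adaptor protein gene, rose from 38.4 ± 12.6 to 147 ± 23.3 with a log2 difference of 1.93. All 8 of these genes had no overlap between the groups, which was part of the rule that chose them.

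The largest falls were led by a chemokine gene. Ccl2 (chr11:81926397-81928279 on the plus strand), which encodes the main monocyte attractant MCP-1, counted 1320.4, 1152, 1243 and 1265 against 14.03, 20.7, 21.9 and 7.02, a 74.1-fold lower mean in the fit (log2 difference −6.21, SE 0.173, adjusted p = 4.1e-24). Ccnd1 (chr7:144483668-144493662 on the minus strand), cyclin D1, which drives cells from G1 into S phase, counted 488, 518, 522 and 454 against 61.2, 62.8, 40.7 and 56.1, again with no overlap, for a log2 difference of −3.16 (SE 0.148). Scd1, the desaturase that makes monounsaturated fatty acids, fell from 327 ± 41.6 to 53.4 ± 3.11. Cd180, a Toll-like receptor homolog that restrains responses to lipopolysaccharide, fell from 335 ± 23.8 to 64.95 ± 4.83, and Igf2bp2, an RNA-binding protein, from 219.6 ± 17.4 to 44.5 ± 7.87. Mrc1 (chr2:14234151-14336926 on the plus strand), the mannose receptor of macrophages, counted 1676, 1644, 1946 and 1968 against 312, 450.3, 435 and 318. The highest NP library thus held less than the lowest MDSC library for this receptor, and the log2 difference was −2.24. Arfgef3 fell from 91.1 ± 14.6 to 20.1 ± 7.03 and Tspoap1, which encodes a protein that binds the mitochondrial translocator protein TSPO, from 813 ± 55.99 to 183 ± 25.8. As for the rises, no overlap between the groups was part of the rule that chose these genes. The rule also picked entries that cannot be counted apart from their relatives. The pseudogene Gm4202 shares 96.3% of its words with other transcripts and counted 65.3, 57.1, 86.6 and 289 against 0 in all 4 NP libraries, at least 39.7-fold lower when 3 counts per library are taken as the floor. Pgam1-ps2 shares all of its words and counted 2462, 2728, 2987 and 2410.5 against 0, 642, 801 and 450.2. The genes with the widest spread among NP libraries were of the same kind: Gm10359, Gm45837, Gm20431, and Gm4294 share 100%, 98.5%, 98.9%, and 99.00% of their words.

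**Figure D2:**
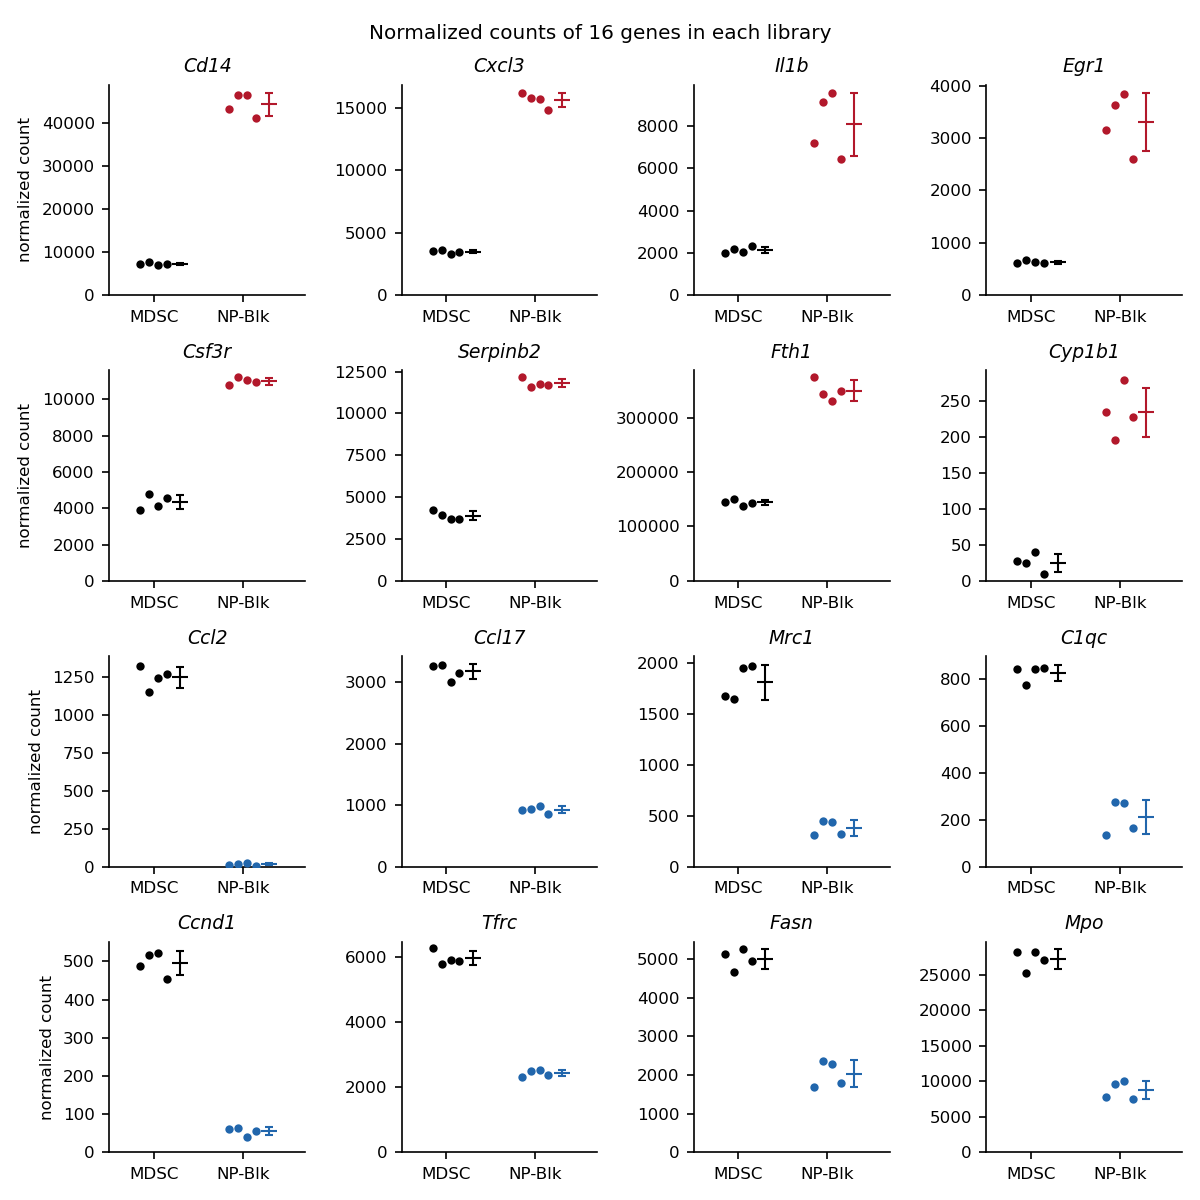
Normalized counts (vertical axes, from 0) of 16 genes in the 4 MDSC libraries (black) and the 4 MDSC-NP-Blk libraries (red where higher, blue where lower), with the mean and SD beside the points. For every gene shown, the points of the groups do not overlap, at low counts as in Cyp1b1 and at high counts as in Fth1.

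Receptors of the innate response did not move as a block. Of 28 Toll-like receptor genes, co-receptors, and adaptors, 11 rose, 5 fell (9 and 12 with library size alone), and 12 did not pass the test, with a median log2 difference of 0.07 against −0.03 for all genes. Cd14 was called higher, and Cd180 and Tlr5, the flagellin receptor, were called lower. Tlr5 counted only 51.9, 49.5, 39.6 and 71.5 against 28.1, 18.6, 23.98 and 26.9, and its call was lost without MDSC replicate 4. The lipopolysaccharide receptor itself, Tlr4, rose by 0.20 on the log2 scale (−0.06 with library size alone), and its partner Ly96 by 0.72. Tlr2, which senses lipopeptides, went from 6300.1 ± 493 to 9949.6 ± 1387 (log2 difference 0.66), whereas Tlr1 (−0.51) and Tlr9 (−0.60) fell. Measured per kilobase of transcript, Cd14 stood at 4441 normalized counts in MDSC and 27034 in MDSC-NP-Blk, against 764 and 877 for Tlr4. The co-receptor thus exceeded the receptor per length in both groups, and by more in MDSC-NP-Blk.

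NF-kB is held in the cytosol by inhibitor proteins that are themselves among its targets, so its subunit and inhibitor genes are commonly read together. Of 26 such genes, 16 rose and only Chuk, which encodes the kinase IKK alpha, fell (log2 difference −0.18). The median was 0.42. Called members (7.69%, against 4.74% of all genes) were Bcl3, an atypical inhibitor that also acts as coactivator, and Relb, a subunit of the noncanonical arm. Bcl3 counted 805, 896, 722 and 686 against 1708, 1881, 1596 and 1673. Relb counted 941, 993, 741 and 979 against 1921, 2111, 2067 and 1815. Both stood apart between the groups (log2 differences 1.14 and 1.12), and both calls were lost with library size alone, where 12 members rose, 4 fell, and 0 were called by edgeR. The feedback genes Nfkbia and Tnfaip3 rose by 0.95 and 0.83, and the subunits Nfkb2, Rela, and Nfkb1 by 0.99, 0.93, and 0.38.

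Inflammatory cytokine genes rose more often than they fell. Of 33 tested, 19 rose and 3 fell, and the median was 0.67. In either direction 18.2% were called, against 4.74% of all genes. The 5 called higher became 8 without MDSC-NP-Blk replicates 1 and 4 and 3 with library size alone, where Il1a and Lif lost the call. Il1b (chr2:129206490-129213059 on the minus strand), which encodes the secreted pyrogen IL-1 beta, counted 1998, 2169.7, 2056 and 2305 against 7179, 9144, 9561 and 6457. The 4 NP libraries all lay above the MDSC libraries but differed among themselves, with replicates 2 and 3 above 1 and 4 (log2 difference 1.92, SE 0.0798, adjusted p = 1.3e-19). Il1a counted 768, 845, 829 and 845 against 1758, 2139, 2092 and 1781. Il6, whose product was also in the medium, counted 62.1, 37.1, 74.6 and 52.3 against 196, 199, 169 and 161. Neither overlapped between groups, and the log2 differences were 1.24 and 1.68. Il12a, a subunit of IL-12 and IL-35, rose from 68.4 ± 17.2 to 169.9 ± 18.2, and Lif, a cytokine of the IL-6 family, from 133 ± 17.98 to 280.1 ± 72.7. Tnf rose by 0.76, Osm by 0.96, and Tgfb1 by 0.86. Those that fell were the growth factor gene Igf1 (from 50.02 ± 22.5 to 14.3 ± 6.02), the B cell survival factor Tnfsf13b (−0.78), and Gdf15 (−0.55).

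Chemokines pull other cells along a gradient, CXC ligands with an ELR motif acting on neutrophils and CC ligands mostly on monocytes, T cells, and dendritic cells. Of 24 ligand genes, 16 rose and 5 fell. This list had the highest share of called genes of the 47, 11 higher and 4 lower of 24 (62.5%, against 4.74% of all genes), and it moved in both directions. The neutrophil attractant gene Cxcl3 (chr5:90933962-90937459 on the plus strand) counted 3529, 3594, 3322 and 3445 against 16232, 15774, 15701 and 14815, a 4.50-fold difference with little spread in either group (log2 2.17, SE 0.0479, adjusted p = 3.2e-27). Cxcl2 counted 2381, 2995, 2469 and 2456 against 6496, 6585, 6751 and 5391. Its product acts on the same receptor, CXCR2. Ccl3 counted 2762, 3018, 2754 and 2872 against 6944, 7505, 8246 and 5778. Ccl4, its neighbor gene, counted 948, 763, 851 and 889 against 2815, 2531, 2681 and 2158. In all of these the lowest NP library exceeded the highest MDSC library. At low levels, Ccl5 rose from 68.8 ± 7.40 to 250.02 ± 63.3, Cxcl10, an interferon-induced T cell attractant, from 45.6 ± 10.3 to 163 ± 61.5, and Cxcl14 from 40.1 ± 8.15 to 132 ± 20.2, and Cxcl16 rose from 490.00 ± 8.62 to 1155 ± 57.4. Cxcl1 had at most 3 raw counts in every MDSC library and was at least 12.1-fold higher in MDSC-NP-Blk, where it still counted only 24.2, 35.9, 46.9 and 25.7. Cxcl5 went from 4.87 ± 2.06 to 25.6 ± 9.42. Ccl8 had 0 raw counts in all MDSC libraries and in NP replicate 4, and at most 13 elsewhere.

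The chemokine genes that were called lower are ligands of CCR2 and CCR4. Beside Ccl2, its neighbor Ccl7 counted 70.8, 55.2, 70.9 and 76.5 against 0, 3.45, 2.08 and 1.17, where the values lie at the level of a few reads. Ccl12 counted 9.44, 6.66, 1.84 and 6.04 against 0 in all 4 NP libraries, which is at least 1.91-fold lower at the floor of 3 counts per library. Ccl17, a ligand of CCR4 that attracts regulatory and type 2 T cells, counted 3264, 3291, 3011 and 3151 against 926, 934, 996 and 850.2 (log2 difference −1.78, SE 0.0772). Its groups were far apart, and Ccl22, the other CCR4 ligand, also fell, from 2715 ± 113 to 2041 ± 91.2 (−0.41). Without MDSC-NP-Blk replicate 1, 11 members were called higher and 4 lower. In bulk RNA, fewer cells of a type and less RNA per cell cannot be told apart, and the summed level of the macrophage markers used here was 481 to 520 CPM in MDSC and 321 to 356 in MDSC-NP-Blk. Of these 12 markers 6 fell and 2 rose, and none was at 0 in all libraries. The dendritic list stood at 553 to 607 and 344 to 358 CPM, with 2 of 10 that fell and 1 that rose. Mrc1 and the C1q genes are themselves among the macrophage markers, so that sum is no separate reading of them. Both sums are scaled by library total alone, without the TMM factors used for rises and falls. The part of cell composition in the falls of Ccl2, Ccl7, Ccl12, Ccl17, Mrc1, and the C1q genes was not tested.

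The CXC genes called higher that lie together on chromosome 5 are shown with the bases before their starts, because these windows hold the same motif. The motif searched was GGGACTT or GGGAATT on either strand, the first letters of a common NF-kB site, in the 250 bases upstream of each canonical start. It occurred in 7 of 24 chemokine ligand genes (29.2%) and in 8.16% of all 17648 genes with a sequence. Among the 7 were Cxcl1, Cxcl2, Cxcl3, Cxcl5, and Cxcl10, which rose, and Ccl22, which fell. The 120 bases before each start follow, from the mouse genome GRCm39 at GENCODE starts, 5′ to 3′ on the plus strand, at chr5:91038974-91039093, chr5:91051610-91051729, chr5:90933842-90933961, and chr5:90907117-90907236. Capitals mark the match, which begins 61, 69, 75, and 108 bases before the start in the same order.
Cxcl1: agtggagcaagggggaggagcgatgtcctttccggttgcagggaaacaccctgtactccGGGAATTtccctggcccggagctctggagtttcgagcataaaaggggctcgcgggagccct
Cxcl2: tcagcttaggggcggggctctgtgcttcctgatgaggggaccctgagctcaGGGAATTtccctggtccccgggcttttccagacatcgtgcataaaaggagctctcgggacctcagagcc
Cxcl3: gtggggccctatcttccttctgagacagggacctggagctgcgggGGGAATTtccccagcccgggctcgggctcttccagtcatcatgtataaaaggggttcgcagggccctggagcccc
Cxcl5: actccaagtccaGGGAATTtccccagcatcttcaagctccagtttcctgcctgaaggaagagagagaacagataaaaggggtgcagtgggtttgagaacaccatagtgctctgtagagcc
All 4 windows hold GGGAATT once. A match is a run of letters and not a measured site. Over all genes called higher, 10.8% held the motif, and of those called lower 8.13%, whereas among genes with a mean normalized count above 50 the shares were 8.13% and 8.91%.

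Immediate early genes are switched on within minutes of a stimulus without new protein synthesis, through serum response elements (CArG boxes), cyclic AMP response elements (CREs), and NF-kB sites. Of 35 listed, 29 rose, 18 of them called (51.4%, against 1.88% of all genes called higher), and the median of 1.01 was the highest of all lists. Klf4, a factor of monocyte differentiation, was the only member to fall (−0.55). Egr1 counted 613, 663, 626 and 605 against 3148, 3638, 3837 and 2602 (log2 difference 2.40, SE 0.0839, adjusted p = 1.8e-21). Egr2 counted 1045, 1111, 1168 and 975 against 2893, 3506, 3544 and 2762. Egr3 counted 699.9, 697, 636 and 752 against 1496, 2333, 2385 and 1542. For all 3 the NP libraries lay above the MDSC libraries without overlap, and for Egr2 and Egr3 replicates 2 and 3 lay above 1 and 4. Junb, a subunit of AP-1, counted 3448, 3690.3, 3974 and 3402 against 10769, 11083, 11046 and 11129.6, with almost no spread among NP libraries. Zfp36l1, which marks AU-rich mRNAs for decay, counted 6556, 6920.1, 6548 and 6347 against 16844, 17683, 17983 and 17461. Ier3 counted 3430.4, 3400.1, 3226 and 3310.2 against 8523, 8019, 8094 and 8904. The orphan receptor gene Nr4a1 rose from 286 ± 23.5 to 726 ± 145. Not every member moved: Myc, which promotes growth, was at 1589 ± 68.1 in MDSC and 1634 ± 135 in MDSC-NP-Blk (0.04, adjusted p = 0.69, edgeR), and Srf at 979 ± 66.6 and 1027 ± 18.4. With library size alone as the scale, 13 members were called higher, and with a correction for length 17.

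Egr2 is printed because it holds both a CArG box (CC, then 6 A or T, then GG) and a CRE (TGACGTC, either strand) close to the start. Of the 35 immediate early genes, 3 held a CArG box (8.57%, against 1.19% of all genes) and 8 a CRE (22.9%, against 2.88%). Among all genes called higher, 6.63% held the CRE, against 2.38% of those called lower. For the CArG box these shares were 1.2% and 0.992%, close to the 1.19% of all genes. The 150 bases before the start of Egr2 (chr10:67373542-67373691) follow, from GRCm39 on the plus strand, with both motifs in capitals.
Egr2: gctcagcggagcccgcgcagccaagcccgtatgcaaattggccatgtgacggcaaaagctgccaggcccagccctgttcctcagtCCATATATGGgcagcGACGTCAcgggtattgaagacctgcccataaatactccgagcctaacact
Srf, another holder of a CArG box, did not pass the test for expression.

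Feedback genes of MAP kinases moved less. Of 18, 10 rose in edgeR, 1 of them (Dusp1) called, and 0 fell, also 0 at an unadjusted p-value under 0.05 and 0 with DESeq2. On the scale of library size alone, 4 rose, 2 fell, and the call of Dusp1 was lost. Dusp1, a phosphatase that switches off p38 and JNK, counted 483, 675, 632 and 616 against 1261, 1490.2, 1482 and 1132. Dusp6, which acts on ERK, counted 3341, 3829, 3529 and 3614 against 6633, 6806, 6732 and 6899, both without overlap (log2 differences 1.16 and 0.92). The Sprouty gene Spry1 rose by 0.56, and Etv5 by 0.22. Of 24 genes of the IL-6 pathway and its suppressors, 14 rose and 4 fell (7 and 7 with library size alone), although both groups were kept with IL-6. Socs1, which blocks JAK kinases, counted 1006, 1068, 923 and 821 against 2124, 1998, 1992 and 2051. The kinase gene Pim3 counted 695, 725, 788 and 806 against 1710.5, 1645, 1529 and 1696. Both were called, and both calls were lost with library size alone. Socs3, the direct inhibitor of the IL-6 receptor, rose by 0.63 and Stat3 by 0.25 (−0.01 for Stat3 with library size alone), and the receptor chains Il6ra and Il6st had log2 differences of 0.38 and −0.12 (adjusted p = 0.22 for Il6st, edgeR).

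Receptors for cytokines rose almost throughout, 21 of 27, with 3 that fell (Lifr, Tgfbr1, and Tgfbr2). Csf3r, the receptor of the granulocyte growth factor G-CSF, counted 3920.4, 4768, 4117 and 4557 against 10782, 11241, 11056 and 10940.2. The spread within groups was small beside the 2.54-fold difference, and 24.3% of its words occur in other transcripts. Il1rn, the natural antagonist of IL-1, counted 17464, 18693, 17063 and 18404 against 33476, 38858, 41567 and 30702 (log2 difference 1.01), a call that was lost without MDSC replicate 3 and without MDSC-NP-Blk replicate 2 or 3. Il1r2, the decoy receptor of IL-1, rose by 0.70. Csf1r and the GM-CSF receptor chain Csf2rb rose by 0.90 and 0.51. Of 24 chemoattractant receptors, 17 rose and 4 fell. Of the receptors 3 were called (12.5%, against 4.74% of all genes). These calls became 1 without MDSC replicate 3 or 4, without MDSC-NP-Blk replicate 3, and with library size alone. Ackr3, a scavenging receptor of CXCL12, went from 26.9 ± 8.32 to 85.7 ± 23.8. The neutrophil receptor Cxcr2 rose by 0.75 and the complement receptor C5ar1 by 0.83, and those that fell included Ccr2, the receptor of CCL2 (−0.67), P2ry6 (−0.60), and C3ar1 (−0.19). Thus the gene for CCL2 and that for its receptor both fell.

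Uptake receptors moved in both directions. Among 35 phagocytic, scavenger, and lectin receptors, 16 rose and 9 fell (9 and 14 with library size alone). Clec4d, a C-type lectin of neutrophils and monocytes, counted 3749.7, 4144, 3536 and 3964 against 10117, 10308, 9995 and 9398. Fcgr4, an activating receptor for IgG, counted 694, 807, 706 and 778 against 1534, 1544, 1587 and 1503. Both were higher in all 4 NP libraries (log2 differences 1.37 and 1.05). The call of Fcgr4 was lost with library size alone and with the length correction. Called lower were Mrc1 as above, Stab1, a scavenger receptor (394, 435, 435 and 492 against 173, 167, 188 and 202), and Siglec1 (52.1 ± 9.91 to 11.3 ± 4.07). Cd36 and Mertk, which bind lipids and dying cells, fell (−0.94 and −0.77), as did Lrp1 (−0.66). The integrin chain Itgam, CD11b, by which the cells were selected, had a log2 difference of 0.24. Of 19 complement genes, 7 rose and 5 fell (2 and 5 with library size alone), and 15.8% were called, against 4.74% of all genes. The called members were the 3 chains of C1q, made mainly by macrophages: C1qa counted 514, 558, 594 and 576 against 131, 224, 227 and 126. C1qb counted 1062, 1278, 1173 and 1155 against 337, 391, 486 and 315. C1qc counted 845, 775, 845 and 847 against 136, 278, 271 and 165. For each chain NP replicates 2 and 3 lay above 1 and 4, yet all lay under every MDSC library (log2 differences −1.64, −1.61, and −1.93). C3, the central component, rose by 0.41.

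Genes of endocytosis, lysosomes, autophagy, and secretion mostly changed by small amounts. Of 31 clathrin, caveolar, and macropinocytic genes, 15 rose and 7 fell (6 and 15 with library size alone), and the single called gene was Cav1, caveolin 1, which was low (79.2 ± 14.02 to 28.6 ± 8.42). Rac2, a GTPase of phagocytes, counted 16013, 17066, 16067 and 16592 against 25270.3, 25441, 24422 and 25043. Cdc42 counted 17029, 17279, 16808 and 16655 against 19900.4, 20022, 19693 and 19117, a difference of 0.22 that was −0.05 with library size alone. Of 52 lysosome genes, 32 rose, 9 fell (12 and 21 with library size alone), and the median was 0.22. Of them, 5.77% were called, against 4.74% of all genes. Npc2, which moves cholesterol out of lysosomes, counted 8383, 8578, 8303 and 8188 against 18256, 16224, 16079 and 18049, a 2.05-fold difference without overlap. The regulators of lysosome genes, Tfe3 and Tfeb, rose by 0.74 and 0.54, and Lamp1 by 0.62. Ctsf, a cathepsin, rose from 11.5 ± 3.13 to 46.4 ± 14.2, and Ctsk, the cathepsin of osteoclasts, fell from 114 ± 17.6 to 55.97 ± 11.7. Of 30 autophagy genes, 17 rose in edgeR (10 with library size alone) and 0 fell, also 0 at an unadjusted p-value under 0.05 and 0 with DESeq2, although 9 fell with library size alone. Map1lc3a, an LC3 gene, counted 374, 401, 386 and 327 against 866, 812, 735 and 871. Calcoco1, a receptor for autophagy of the endoplasmic reticulum, counted 491, 502, 518 and 475 against 1079, 912, 811 and 1213. The cargo receptor Sqstm1, p62, rose by 0.99, and Map1lc3b and Gabarap by 0.97 and 0.94. These genes stood on both sides of the limit of 1 with little between them. Of 40 SNARE and secretion genes, 21 rose and 5 fell (11 and 13 with library size alone), and the called gene Sytl3 (41.6 ± 7.34 to 86.02 ± 14.1) shares 58.9% of its words with other transcripts.

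**Figure D3:**
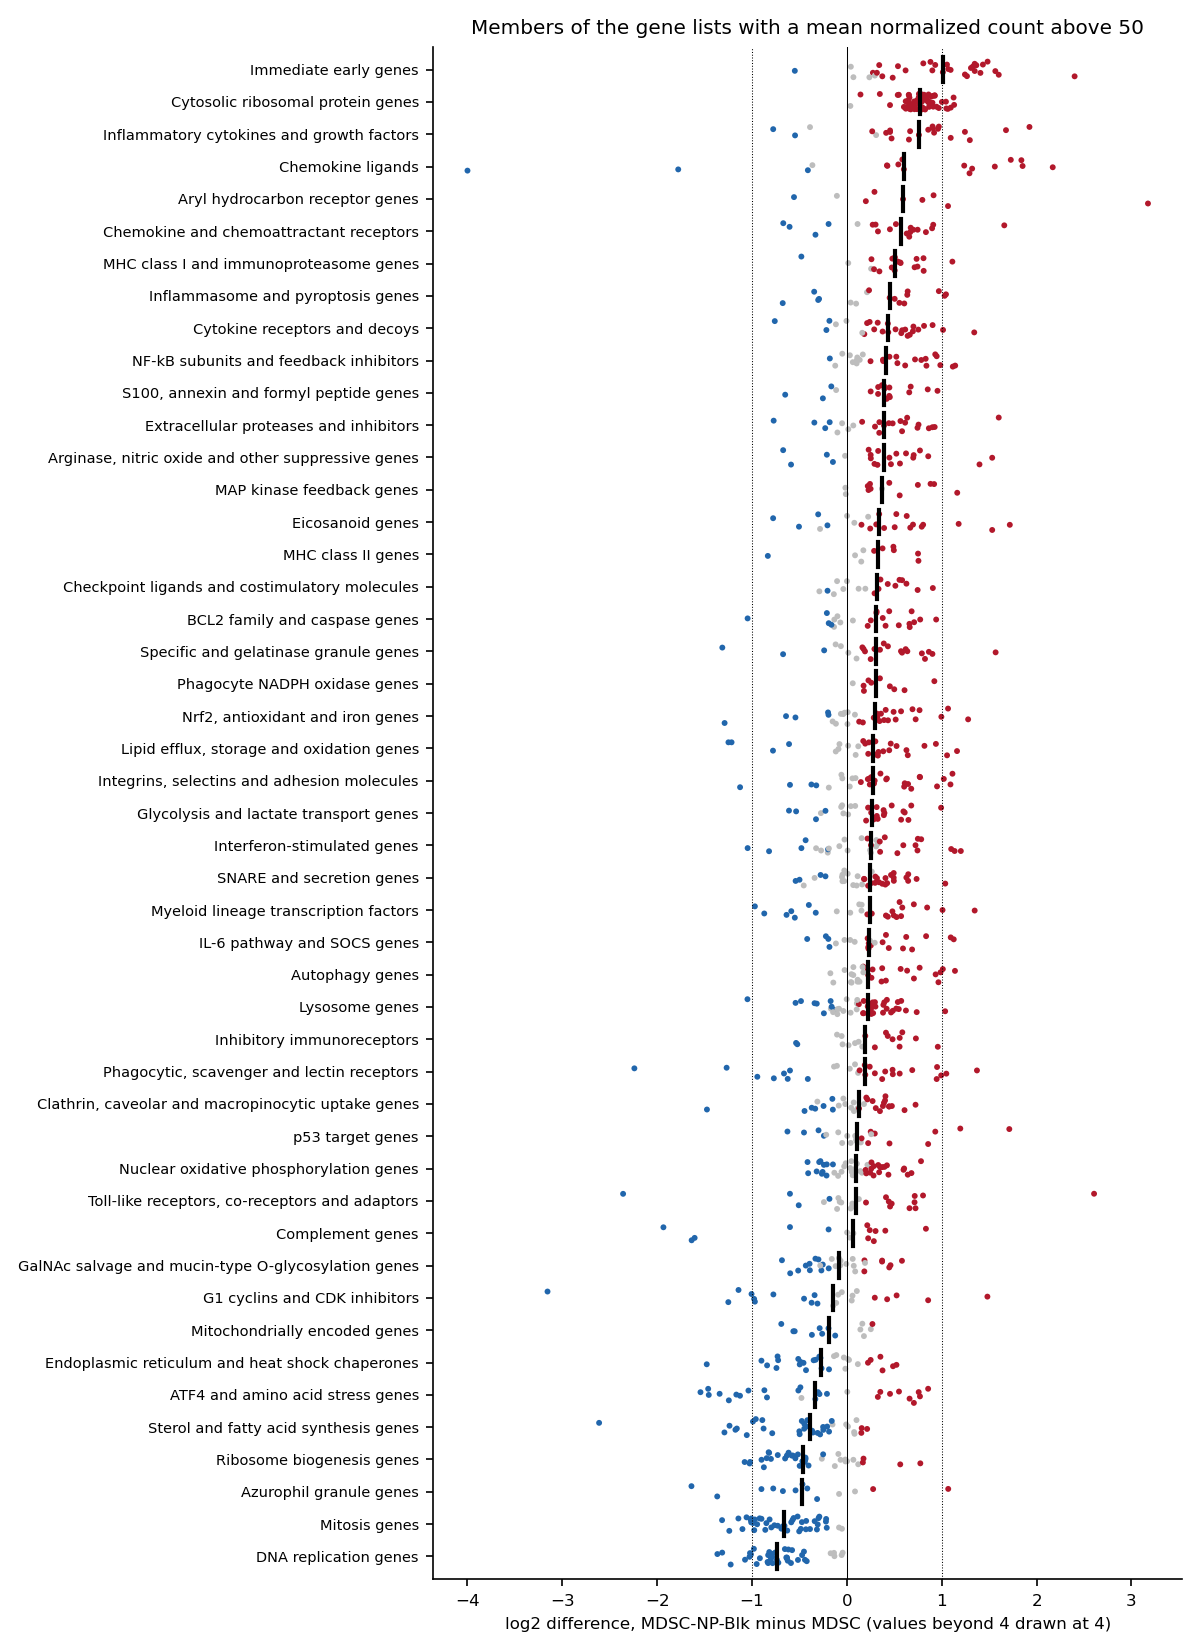
Members of the 47 gene lists with a mean normalized count above 50, placed by their log2 difference between MDSC-NP-Blk and MDSC. Red and blue points rose and fell (adjusted p-value below 0.05), gray points did not pass, points beyond 4 in size are drawn at the edge, and black bars are medians over the points shown, highest for immediate early genes and lowest for DNA replication genes. With library size alone as the scale, 17 of the 47 medians over all tested members changed sign.

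Inflammasome and pyroptosis genes rose in 10 of 18 and fell in 5. Txnip, which binds thioredoxin and responds to glucose, counted 13549, 13577, 13539 and 13039.7 against 27958, 25877, 25509 and 30373. Gsdme, a pore-forming gasdermin, counted 1096, 1142, 1057 and 1122 against 2323, 2233, 2212 and 2348. Their spread was small and the groups did not overlap (log2 differences 1.03 and 1.04). The sensor Nlrp3 rose by 0.64, Pycard by 0.50, and Casp1 had 0.21 (adjusted p = 0.062, edgeR). Nlrp1b was lower, at 55.8, 32.4, 29.5 and 29.2 against 5.10, 2.76, 6.25 and 9.36, and Naip5 and Naip2, sensors of flagellin and its export machinery, had −0.68 and −0.34.

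Genes of iron and antioxidants include Fth1, which had the highest normalized counts of all called genes. Ferritin stores iron in a shell of heavy and light chains, and the transferrin receptor imports iron. Both are set at the level of mRNA by iron-responsive elements (IREs), which block translation of ferritin and protect the receptor mRNA from decay when iron is scarce. Fth1, the heavy chain (chr19:9957911-9962462 on the plus strand), counted 144177, 150642, 137976 and 143891 against 375240.0, 343418, 330363 and 349706. This is a 2.43-fold rise with no overlap (log2 1.28, SE 0.0387, adjusted p = 4.1e-23), and 12.9% of its words occur in other transcripts. Tfrc, the transferrin receptor (chr16:32427556-32451612 on the plus strand), counted 6285, 5788, 5919.7 and 5894 against 2321, 2519.7, 2534 and 2393. It was 2.44-fold lower, with every NP library under every MDSC library (log2 −1.29, SE 0.0560). The light chain Ftl1 counted 132975, 145851, 132651 and 135527 against 182843, 166974, 163196 and 169897 (0.32). The iron exporter Slc40a1 counted 3077, 3177, 3037 and 3119 against 2716, 2499.7, 2587 and 3019.5 (−0.20), a small fall. Their elements are printed because they lie in different places: Fth1, Ftl1, and Slc40a1 carry 1 match each before the coding sequence, and Tfrc carries 4 behind it. Each run is 29 bases of GRCm39 on the coding strand, and capitals mark the loop.
Fth1, 5′ UTR, chr19:9960096-9960124, plus strand: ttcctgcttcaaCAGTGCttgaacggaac
Ftl1, 5′ UTR, chr7:45109203-45109231, minus strand: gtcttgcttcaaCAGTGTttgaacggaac
Slc40a1, 5′ UTR, chr1:45964625-45964653, minus strand: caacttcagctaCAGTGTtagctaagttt
Tfrc, 3′ UTR, chr16:32450037-32450065, plus strand: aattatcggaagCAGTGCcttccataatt
Tfrc, 3′ UTR, chr16:32450416-32450444, plus strand: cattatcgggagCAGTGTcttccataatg
Tfrc, 3′ UTR, chr16:32450481-32450509, plus strand: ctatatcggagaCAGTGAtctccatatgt
Tfrc, 3′ UTR, chr16:32450528-32450556, plus strand: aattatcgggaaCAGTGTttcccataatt
Protein and iron were not measured in these files.

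Over the 33 genes of Nrf2, antioxidants, and iron, 19 rose and 5 fell (12 and 14 with library size alone). Sod2, the mitochondrial superoxide dismutase, counted 4385, 4858, 4489 and 4677 against 9520.4, 9864, 10124 and 9039 (log2 difference 1.07). Hmox1, heme oxygenase 1 and a standard Nrf2 target, was at 5344 ± 202 and 5369.7 ± 449.5 (0.01, adjusted p = 0.96, edgeR), and Nqo1 rose by 0.77. Of 14 aryl hydrocarbon receptor genes, 7 rose and 1 fell (5 and 1 with library size alone). Beside Cyp1b1 the repressor Ahrr was called (355, 311, 287 and 353 against 676, 705, 658 and 697, log2 difference 1.07). Tiparp, another target of the receptor, rose by 0.80 and the receptor gene Ahr by 0.59. Cyp1a1 was near 0 in both groups, so the classic target of this receptor gave no reading here.

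Lipid synthesis genes fell. SREBP factors turn these genes on when sterol in the endoplasmic reticulum is low. Of 36 sterol and fatty acid genes, 27 fell and 3 rose, with a median of −0.39. Of the 36, 6 were called lower (16.7%, against 2.86% of all genes). Fasn, fatty acid synthase (chr11:120696672-120715995 on the minus strand), counted 5142, 4658, 5268 and 4951 against 1686, 2372, 2294 and 1803. Acaca, which makes its substrate malonyl-CoA, counted 1754, 1525, 1879.9 and 1871 against 704, 722, 849 and 705, although 56.8% of its words occur in other transcripts. Lss, a step of cholesterol synthesis, counted 1843, 1611, 1723 and 1839.8 against 666, 802, 798 and 836. None of these overlapped between groups (log2 differences −1.29, −1.24, and −1.18), whereas Srebf2 and Srebf1, the factors themselves, rose by 0.21 and 0.16 (−0.05 and −0.11 with library size alone). The other called members were Scd1, Fads2, and Elovl6 (−2.61, −1.16, and −1.06), which act in fatty acid desaturation and elongation. With the length correction 4 of 36 were called lower, with Fasn, Acaca, and Elovl6 no longer among them, and the median was −0.39. The call of Elovl6 was also lost without MDSC-NP-Blk replicate 1 or 4. In the list of lipid efflux, storage, and oxidation, 18 of 31 rose and 5 fell (9 and 10 with library size alone). Apoe counted 801, 841, 883 and 925 against 1812, 1812, 1789 and 1755. Hilpda, a lipid droplet protein induced by hypoxia, counted 909.9, 914, 854 and 846 against 2263, 1707, 1643 and 2293. The next 2 members went the other way. Fabp5, a fatty acid carrier, counted 2565, 2650.2, 2595 and 2736 against 1115, 1103, 1256 and 1064. Ch25h, which makes 25-hydroxycholesterol, counted 131, 149, 131 and 138 against 62.5, 64.8, 52.1 and 50.3. Thus Apoe and Hilpda stood above, and Fabp5 and Ch25h below, every library of the other group. Abca1, the cholesterol exporter, rose by 0.82.

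Genes of the stress factor ATF4 and of amino acid stress fell more often than they rose. ATF4 is the factor of the integrated stress response, made when amino acids are short or protein folding fails. Of 31 listed targets, 17 fell (9 called), 9 rose, and the median was −0.49. Psat1, in serine synthesis, counted 1858, 1749, 1782 and 1617 against 584, 731, 679 and 548. Aldh18a1, in proline synthesis, counted 1021, 979, 1048 and 992 against 314, 419, 366 and 359. Shmt2 counted 1004, 973, 1056 and 1018 against 394, 453, 473 and 384. Like Mthfd2, it serves mitochondrial one-carbon metabolism. Mthfd2 counted 1555, 1508, 1396 and 1538 against 644, 769.6, 696 and 627. All 4 were lower in every NP library (log2 differences −1.46, −1.46, −1.24, and −1.13). The 9 that rose include Ddit3 (0.77), Trib3 (0.55), and Ddit4 (0.66), which act in stress signaling, and Eif4ebp1 (0.86), a brake on translation. With the length correction 9 members were called lower. Chaperones of the endoplasmic reticulum and cytosol fell in 17 of 31 and rose in 6. Sdf2l1 was the called gene, at 2057, 2291, 2176 and 2174 against 795, 839.9, 835 and 646, and Hspa5 and Calr, both major chaperones of the endoplasmic reticulum, had log2 differences of −0.84 and −0.90. Hspa8 and Hsp90ab1 in the cytosol rose by 0.49 and 0.25, with 77.2% and 15.5% of their words shared with other transcripts.

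Proliferation genes fell almost as a whole. Of 39 replication genes, 34 fell and 0 rose in edgeR, and of 44 mitosis genes, 42 fell and 0 rose. The counts of rises were also 0 at an unadjusted p-value under 0.05 and with DESeq2. The medians of −0.74 and −0.67 were the lowest of the 47 lists. The size was modest: 7 and 8 were called (17.9% and 18.2%, against 2.86% of all genes called lower). Rrm2, the small subunit of ribonucleotide reductase, counted 3583, 3618, 3614 and 3629 against 1657, 1819, 1914 and 1720.3. Pola1, a DNA polymerase, counted 803, 819, 895 and 805 against 296, 367, 374 and 243. Both lists stood apart between groups in every library, as the map of list levels shows. Nearly all of the 47 lists did so, which is therefore not particular to proliferation genes. E2f8 and E2f7, E2F factors that repress cell cycle genes, also fell. E2f8 counted 1714, 1746, 1644 and 1659 against 615, 819, 824 and 571. E2f7 counted 474, 482, 473 and 439.8 against 207, 217, 208 and 213. Of 25 G1 cyclin and CDK inhibitor genes as a whole, 5 rose and 11 fell. Ccne2, cyclin E2, fell from 697 ± 88.3 to 348 ± 17.4. The CDK inhibitor Cdkn2b rose from 44.2 ± 8.34 to 125 ± 23.6 and was the only G1 gene called higher, and Cdkn1a rose by 0.86. In mitosis, Kif11, a spindle motor, counted 3262, 3327, 3239 and 3343 against 1485, 1664, 1846 and 1523. Anln, of the cleavage furrow, counted 1861, 1720.5, 1885 and 1912 against 657, 852, 816 and 791. Knl1, of the kinetochore, counted 1063, 900.2, 1046 and 1103 against 337, 435, 511 and 361. No library of one group reached the other (log2 differences −1.01, −1.24, and −1.32). Mki67, the proliferation marker, fell from 11980.3 ± 2271 to 6808 ± 848 (−0.81), while Ube2c and Birc5 did not pass the test (−0.05 and −0.08). The counts of called genes depend on the setting: without MDSC-NP-Blk replicate 1 they were 5 and 5, without replicate 4 the same, without replicate 3 of that group 13 for mitosis, without replicates 1 and 4 they were 4 and 3, with the length correction 7 and 4, and with library size alone 20 and 19. The calls of Rrm2, Kif11, and Ect2 were among those lost without replicates 1 and 4. The medians with the length correction were −0.76 and −0.63.

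Promoters of genes of mitosis often pair a CHR element (TTTGAA) with CCAAT boxes. Of the 44 mitosis genes, 11 held TTTGAA on either strand in the 250 bases upstream (25%, against 14.6% of all genes) and 20 held CCAAT (45.5%, against 35.2%). Among all called genes the CHR was not more common in those that fell, 14.9% against 20.2% in those called higher. E2F letters (TTGGCGC or TTCCCGC) stood in 10.1% of those called lower, 3.31% of those called higher, and 7.37% of all genes. Of the mitosis genes only 2 of 44 (4.55%) held E2F letters, and of the replication genes 7 of 39 (17.9%). The examples are Ect2, an exchange factor of cytokinesis, with 120 bases at chr3:27208030-27208149, and Top2a, topoisomerase 2 alpha, with 250 bases at chr11:98915042-98915291, both on the minus strand of GRCm39. Capitals mark TTTGAA and CCAAT on either strand.
Ect2: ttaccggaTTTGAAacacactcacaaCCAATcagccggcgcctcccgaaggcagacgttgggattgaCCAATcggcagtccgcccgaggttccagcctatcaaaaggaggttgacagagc
Top2a: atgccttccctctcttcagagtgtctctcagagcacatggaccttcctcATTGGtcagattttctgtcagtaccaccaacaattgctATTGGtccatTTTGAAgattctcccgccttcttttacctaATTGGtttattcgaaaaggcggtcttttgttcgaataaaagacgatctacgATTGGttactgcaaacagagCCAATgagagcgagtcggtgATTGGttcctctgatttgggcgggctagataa
Ect2 counted 1560.3, 1384, 1486 and 1517 against 639, 767, 777 and 579. Top2a counted 11627, 10718, 11584 and 11218 against 5071, 6258, 6400.4 and 5286 (log2 differences −1.10 and −0.97).

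**Figure D4:**
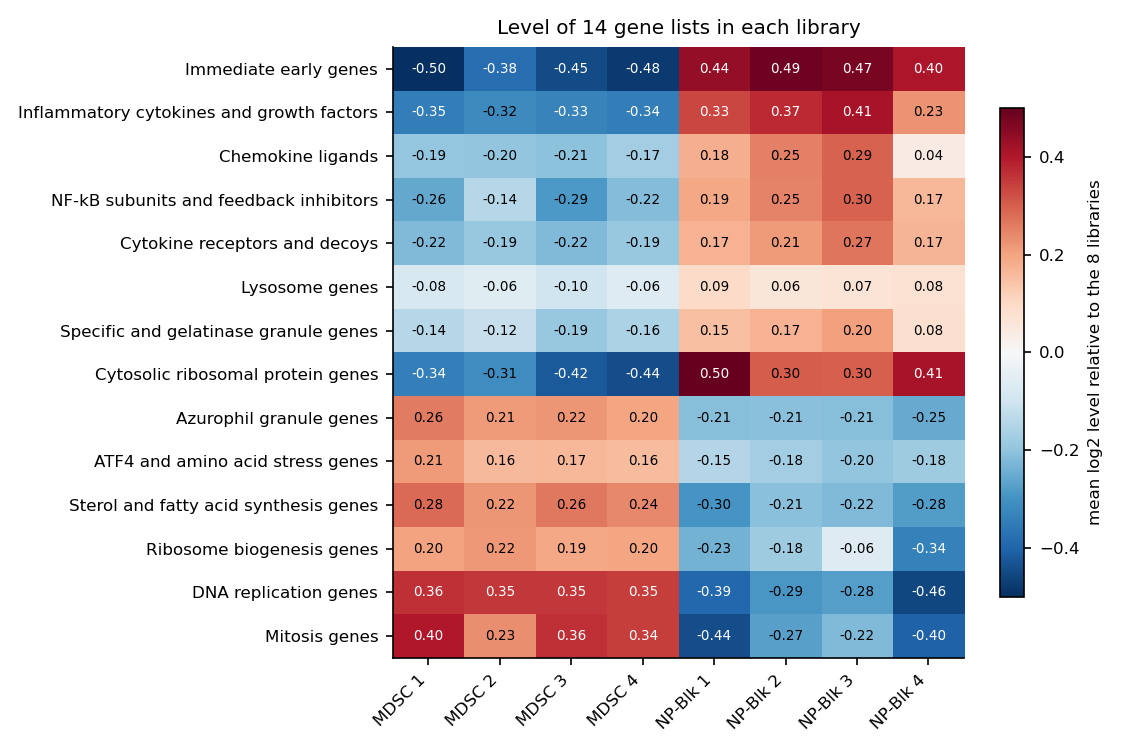
Mean log2 level of 14 gene lists in each library, relative to the mean of the 8 libraries (color and number), over members with a mean normalized count above 50. Rows of signaling genes are negative in all MDSC and positive in all MDSC-NP-Blk libraries, rows of granule proteases, lipid, amino acid, and proliferation genes the reverse.

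Ribosome genes moved in opposite directions by class. Of 38 genes that build ribosomes, 25 fell and 4 rose (median −0.46), and of 75 genes for cytosolic ribosomal proteins, 74 rose, all but Rpl5, and 0 fell in edgeR (0 also at an unadjusted p-value under 0.05 and with DESeq2), with a median of 0.77. Scaled by library size alone, 72 rose and 1 fell. Of the ribosomal protein genes 9.33% were called, and of those that build ribosomes 7.89%, against 4.74% of all genes. Utp20 and Polr1b, of ribosomal RNA processing and synthesis, fell from 572 ± 62.2 to 279 ± 52.3 and from 368 ± 19.6 to 172 ± 50.4. Rps9 counted 18442, 20103, 17898 and 16904 against 43259, 38107, 36542 and 42056. Rplp2 counted 7499, 7313, 7060.0 and 6871 against 17932, 14299.7, 14251 and 16470.5. The values of both lay higher in NP replicates 1 and 4 than in 2 and 3, and 21.6% and 37.8% of their words occur in other transcripts. These lists differ in transcript length, and the comparison as a whole varied with it. Across 10587 genes the log2 difference had a Spearman rho of −0.319 with length, which describes genes and not replicates. In the 2118 shortest (171 to 1893 bases) the median was 0.25, with 79 genes called higher and 22 lower, and in the 2118 longest (from 5585 bases) it was −0.20, with 14 and 105. After the length correction the ribosomal protein median was 0.54 with 2 genes called, and the ribosome assembly median −0.49 with 0. The medians of both lists thus kept their sign. The calls rest on single libraries as well: the 7 ribosomal protein calls became 3 without MDSC-NP-Blk replicate 1, 1 without replicates 1 and 4, and 0 with library size alone in edgeR, and the 3 assembly calls became 1 without replicate 1 and 0 without replicate 4 or without both, while with library size alone they were 9. The part of RNA quality or of the library preparation in this trend was not tested.

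**Figure D5:**
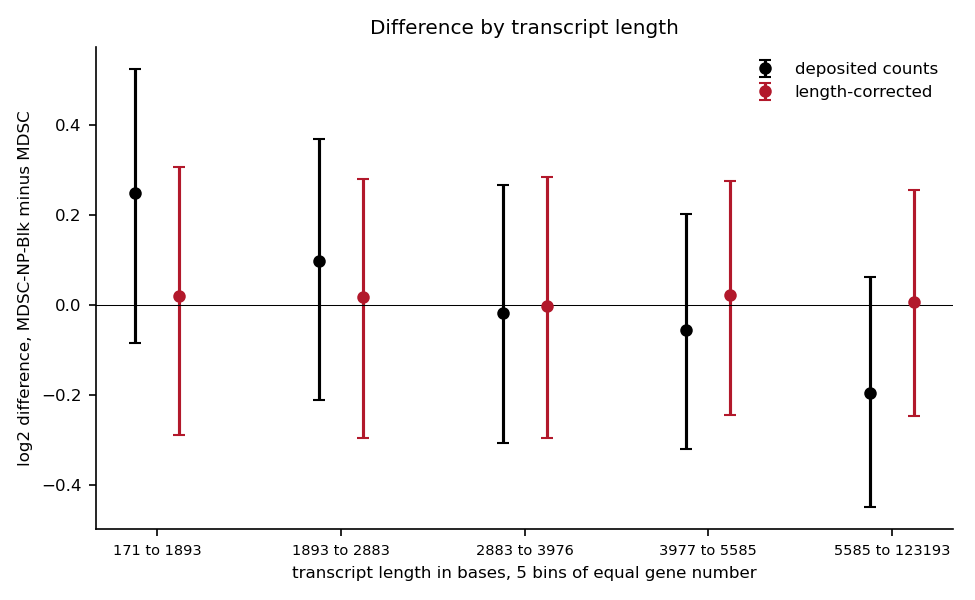
Median log2 difference between MDSC-NP-Blk and MDSC (points, with the 25th and 75th percentiles as bars) in 5 bins of genes by transcript length in bases, from the deposited counts (black) and after a length correction (red). The black medians go from 0.25 in the shortest bin to −0.20 in the longest, and the red ones lie within 0.03 of 0.

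Granule genes are made in a fixed order as neutrophils mature, azurophil (primary) granules first and specific and gelatinase granules later. Azurophil genes fell in 10 of 15 and rose in 2, with a median of −0.54. Specific and gelatinase genes rose in 18 of 25 and fell in 3, with a median of 0.31. With library size alone, 12 azurophil genes fell and 1 rose, while 11 specific and gelatinase genes rose and 8 fell (medians −0.80 and 0.05). With the length correction the medians were −0.71 and 0.18. Mpo, myeloperoxidase (chr11:87684407-87695239 on the plus strand), counted 28194, 25204, 28195 and 27106 against 7729.6, 9581, 10039.5 and 7538, 3.11-fold lower (log2 −1.64, SE 0.0664, adjusted p = 8.6e-20). Ctsg, cathepsin G, counted 9090.4, 8803, 9129.6 and 8570.0 against 3351, 3619.6, 3685 and 3135, and Elane and Prtn3, the other serine proteases, had log2 differences of −0.47 and −0.42. Srgn, the proteoglycan that packs granule contents, was called higher (24184, 23753, 22662 and 22858 against 51239.5, 47839, 46319.7 and 50589). In the later classes, Retnlg, a resistin-like protein of mature neutrophils, counted 4939.6, 5316, 4543 and 4545 against 15694, 14408, 14330.1 and 12927. The collagenase Mmp8 counted 46778, 48609.9, 44329 and 45344 against 84723, 88023, 86748 and 86279.5. Orm1, an acute phase protein, was called lower but was scarce (109.8 ± 19.9 to 44.2 ± 8.91). Among 28 myeloid transcription factors, 14 rose and 7 fell (12 and 9 with library size alone). Cebpb, which drives emergency granulopoiesis, counted 7080.2, 6937, 6758 and 6137 against 14738, 13098, 12675 and 13648. Its log2 difference of 1.01 lay at the limit, and its call was lost with DESeq2 and with several other settings. Gfi1 and Myb, factors of granulocyte progenitors, fell (−0.87 and −0.97), as did Maf, a factor of macrophages (−0.64). Beside these changes, the summed granulocytic markers stood at 35522 to 39238 CPM in MDSC and 40920 to 42767 in MDSC-NP-Blk, and eosinophil markers, another cell type of such cultures, at 1553 to 1898 and 1021 to 1236. These sums are scaled by library total alone, without TMM factors. The part of a change in cell composition was not tested.

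Genes by which MDSCs suppress T cells mostly rose, and 2 of them were called (8.33%, against 4.74% of all genes). Of 24, 17 rose and 4 fell. Arg1, arginase 1, counted 10730.1, 9113, 9522 and 8643 against 17496, 13714, 12408 and 18348 (log2 difference 0.70, SE 0.0780, adjusted p = 3.2e-09), with NP replicates 1 and 4 above 2 and 3. Arg2, the mitochondrial arginase, counted 789, 851, 803 and 949 against 2330.3, 2118, 2111 and 2377. Ptgs2, the inducible prostaglandin synthase COX-2, counted 251, 314, 265 and 251 against 667, 958, 878 and 605. Both were called higher without overlap (log2 differences 1.40 and 1.53). Nos2, the inducible nitric oxide synthase, counted 3969.9, 3405, 3663 and 3403 against 2844, 1700.5, 1375 and 3731. It fell in the test (−0.59), with NP replicates 2 and 3 lowest and replicate 4 inside the MDSC range, and it passed the fold limit only without replicates 1 and 4. Tgfb1 counted 7879, 8257, 7839 and 7601 against 14432, 14327, 14878 and 13582, apart in all libraries (0.86). Il10 had counts only in NP replicate 2 (0, 4.14, 0 and 0 against 0 in all MDSC libraries), so no change could be read. Among checkpoint ligands and costimulatory molecules, 10 of 25 rose and 2 fell (7 and 6 with library size alone). Cd274, PD-L1, counted 3177, 3526, 3306 and 3491 against 4745, 4605, 4940.0 and 4950.3. Vsir, VISTA, counted 15722, 16478, 15952 and 15691 against 24715, 23657, 22585 and 24636. Both stood apart between groups with differences under the limit (0.51 and 0.58). Pvr counted 451, 411, 456 and 338 against 388, 386, 391 and 454, groups that overlap (−0.04, adjusted p = 0.81, edgeR). Fasl was at 0 counts in 7 of the 8 libraries. Cd276, B7-H3, was the single called gene and was low (62.3 ± 12.99 to 15.9 ± 5.23). Of 19 inhibitory immunoreceptors 10 rose and 2 fell (8 and 8 with library size alone). By edgeR, by DESeq2, or at an unadjusted p-value under 0.05 with the same fold, 0 were called. Without MDSC replicate 2 and with the length correction, 1 was called higher. Cd33 and Sirpa had 0.73 and 0.43.

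Interferon-stimulated genes gave a mixed picture, with 16 of 44 that rose, 6 that fell (9 and 12 with library size alone), and a median of 0.23. Ifi204 counted 537, 559.5, 536 and 528 against 1193, 1305, 1280.1 and 961. Oasl2 counted 349.96, 443, 289 and 367 against 886, 782, 842 and 826. Gbp2, a guanylate-binding protein, counted 414, 366, 306 and 363 against 824, 681, 781 and 835. All were higher in every NP library, though 44.00% of the words of Ifi204 are shared with relatives. Slfn4 was lower, at 1108, 1165, 1004 and 1169.5 against 537, 529, 554 and 533 (−1.05), and Isg15, a standard member, did not pass (0.33, adjusted p = 0.14, edgeR). MHC class I and immunoproteasome genes rose in 16 of 19 (median 0.51), and Nlrc5, their transactivator, fell (−0.48). H2-D1 counted 18994, 21197, 19984 and 19611 against 45428, 42132, 40800.1 and 44109, with 28.5% of its words in other transcripts, and B2m, the invariant chain, 20237, 20842, 19426 and 18630.5 against 28719, 26802, 27215 and 27584. MHC class II genes rose in 6 of 10, by at most 0.75, and Ciita, their transactivator, fell (−0.83). In both classes, therefore, the transactivator gene fell while most of its targets rose.

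Adhesion genes rose in 21 of 32 and fell in 4 (12 and 8 with library size alone). In either direction 15.6% were called, against 4.74% of all genes. Selplg, the ligand of P-selectin, counted 11005, 11293, 10819.8 and 10661 against 22783, 21859, 21101 and 23157. Jaml counted 795, 1136, 980.01 and 998 against 2098, 2122, 2095 and 2128. These genes of leukocyte adhesion were higher in every NP library. Itga4, a chain of VLA-4 and the single called gene that fell, counted 1559, 1373, 1713 and 1612 against 626, 746, 840.2 and 647. Its transcript is long, and its call was lost with the length correction and without MDSC-NP-Blk replicates 1 and 4. The 4 calls of adhesion genes that rose were lost with library size alone. Extracellular protease genes rose in 17 of 26 and fell in 4 (11 and 7 with library size alone). They were led by Serpinb2 (chr1:107428593-107463208 on the plus strand), plasminogen activator inhibitor 2, at 4261, 3928, 3681 and 3692 against 12150.4, 11603, 11776 and 11691 (log2 difference 1.60, SE 0.0518, adjusted p = 2.8e-22). The abundant elastase gene Mmp12 rose by 0.34. Eicosanoid genes rose in 15 of 25 and fell in 4 (9 and 6 with library size alone). Alox5ap, the partner of 5-lipoxygenase, counted 14500.2, 15599.7, 14780.3 and 14650.0 against 36367, 32841, 30014 and 35503. Ltc4s, leukotriene C4 synthase, counted 63.7, 83.7, 60.8 and 58.4 against 233, 232, 169.9 and 242, both without overlap. The enzymes Alox5 and Lta4h had 0.34 and −0.30. Of 11 NADPH oxidase genes 9 rose in edgeR and 0 fell, also 0 at an unadjusted p-value under 0.05 and with DESeq2, although 4 rose and 1 fell with library size alone. Cybb, the catalytic subunit, counted 46733, 47987, 48774 and 50476 against 46945, 60077, 62550.1 and 49545, with overlap. Of 18 S100, annexin, and formyl peptide genes, 14 rose and 3 fell. S100a9 and S100a8, which pair as calprotectin, had the highest and the third highest mean normalized count of all genes. S100a9 counted 290779, 302987, 259268 and 278309 against 410074, 367790.0, 380051 and 385606. S100a8 counted 260836, 284366, 245626 and 263659 against 342038, 325942, 340830.0 and 316423. Thbs1, thrombospondin 1, counted 242985, 252019, 250216 and 257846 against 328192, 441061, 460787 and 360199. Ngp, neutrophilic granule protein, counted 180535, 173095, 168714 and 170917 against 279033, 262764, 258017 and 278600.0. All 4 lay higher in every NP library, by log2 differences of 0.45, 0.33, 0.66, and 0.64.

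Death and survival genes moved on both sides. Of 24 p53 targets 9 rose and 4 fell (5 and 10 with library size alone). Of these targets 8.33% were called, against 4.74% of all genes. Bbc3, the death inducer PUMA, counted 197, 134, 237 and 214 against 687, 615, 535 and 732. Fas, the death receptor, counted 864, 891, 879.6 and 1047 against 2039.5, 2169, 2278 and 1931. Trp53 itself did not pass the test (0.15, adjusted p = 0.11, edgeR). Of 25 BCL2 family and caspase genes, 14 rose and 4 fell (7 and 9 with library size alone). Bcl2 was called lower (381, 372, 398 and 421 against 166, 194, 229 and 167), and Mcl1, on which neutrophils depend for survival, rose (16589, 17326, 15836 and 16448 against 26585, 26258, 25486 and 27917). Bcl2a1b rose by 0.55 but shares 88.1% of its words with its copies.

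Among genes of GalNAc processing and genes of energy metabolism, 0 were called by edgeR, by DESeq2, or at an unadjusted p-value under 0.05 with the same fold. Other settings gave single calls. With library size alone 1 GalNAc gene was called lower, and with the length correction 1 mitochondrially encoded gene. Of the glycolysis genes, 1 was called higher with upper-quartile factors, without MDSC replicate 2, and without MDSC-NP-Blk replicate 1, 4, or both. The methods name an azido form of galactosamine as the labeling sugar, whereas the paper's results name one of mannosamine. Of 31 genes of GalNAc salvage and O-glycosylation, 7 rose, 12 fell, and the median was −0.08. Ogt, which adds O-GlcNAc, had −0.68 and Oga, which removes it, 0.37, so this pair moved in opposite directions. Galk1, the galactose kinase, fell (−0.27). Of 30 glycolysis and lactate transport genes, 17 rose and 4 fell (7 and 9 with library size alone). Gapdh counted 125423, 121948, 116658 and 112827 against 209878, 168364, 159941 and 209425, where NP replicates 1 and 4 again stood above 2 and 3, and 84.1% of its words are shared. The lactate exporter Slc16a3 rose by 0.61 and the importer Slc16a1 fell (−0.54). Of 46 nuclear genes of oxidative phosphorylation 19 rose and 11 fell (median 0.10). The direction depends on the scale: 9 rose and 18 fell with the length correction (median −0.06), and 6 and 24 with library size alone (median −0.16). Of 13 mitochondrially encoded genes 1 rose and 8 fell (median −0.19). These 2 lists and the uptake receptors were the only 3 of the 47 in which the mean levels of the 2 groups of libraries overlapped.

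Some of these genes differed again when the conjugated NPs held rapamycin, an inhibitor of mTOR. That contrast uses the same MDSC-NP-Blk libraries, so the values are set side by side without a joint count. Mpo fell further, to 1279 ± 67.4 in CITED (log2 difference to MDSC-NP-Blk −2.77, adjusted p = 5.3e-25, edgeR), and Tfrc to 1013 ± 80.3 (−1.27, adjusted p = 7.1e-18). Kif11 and Rrm2 fell further to 699 ± 35.7 and 774 ± 50.97 (−1.22 and −1.20), and C1qa to 33.9 ± 6.95 (−2.42). Cxcl3 and Fth1 rose further, to 32447 ± 1486 and 540310.0 ± 14700.4 (1.05 and 0.63). Others went back toward MDSC. Slfn4 was at 1236 ± 206 in CITED (1.20, adjusted p = 1.1e-12), Ch25h at 134 ± 18.5 (1.22), and Stab1 at 322 ± 41.9 (0.83), while Fyb2 and Sytl3 fell to 55.9 ± 12.8 and 32.5 ± 7.92 (−1.40 and −1.40). For Ccl17 (−0.02, adjusted p = 0.9), Egr1 (0.14, adjusted p = 0.23), Fas (0.01, adjusted p = 0.98), and Fasn (−0.15, adjusted p = 0.16), the difference to MDSC-NP-Blk did not pass the test in edgeR.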

How the data were processed

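Bulk poly(A) RNA-seq of 12 libraries was used, 4 per group as the sample titles give them. Per the labels and methods, the authors quantified paired reads with Salmon 1.4.0 on a decoy-aware GENCODE transcriptome of GRCm39 and summed transcripts per gene with tximport in R 4.3.2. The deposited values are whole-number counts per gene symbol, without normalization, so that reads shared by related transcripts were assigned by estimation. The GENCODE release is not given in the sources used here. One entry had an empty symbol and 0 counts and was left out. Totals were 20604809 to 37855478 counts per library in the 8 libraries compared.

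The test was applied to genes whose counts summed to 2 or more across the 12 libraries. It was edgeR 4.0.16 (R 4.3.3) in its quasi-likelihood form, with TMM factors, group as the only term, and Benjamini-Hochberg adjustment over 17676 genes. Genes were called at an adjusted p-value below 0.05 and a log2 difference of at least 1. The SE is the log2 difference divided by the square root of F. Normalized counts are counts divided by effective library size and multiplied by its mean. The biological coefficient of variation was 9.03%. The fit was tested on simulated data. CITED against MDSC-NP-Blk came from the same fit and shares its libraries.

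The comparison, its 47 gene lists, and the marker lists were chosen with earlier results of these data known. Genes named by rule were the 10 with the largest log2 difference in each direction among called genes with a mean above 50 and no overlap, genes whose protein the study measured, up to 4 called genes per direction and list by p (or the 2 with the highest mean where fewer than 2 were called), the 5 with the highest mean, and the 5 with the largest spread among MDSC-NP-Blk libraries. The text names a part of them, some others are not reported here, and genes outside the rule were chosen after their values were seen. Length, positions, and the 250 bases upstream of canonical starts came from GENCODE M39 on GRCm39 (17648 of 17676 symbols matched), iron-responsive elements from a search for their loop and paired stem in UTRs, and the share of 31-base words found in transcripts of other genes from the same release. The length correction was a loess fit (span 0.5) of relative expression on log2 length per library, used as an offset. Group values of library properties were compared by exact permutation tests. Alternatives were DESeq2 1.42.0, other normalizations, filters, and call rules, 8 libraries only, a replicate block, and leaving out each library. One alternative, without MDSC-NP-Blk replicates 1 and 4, was added after the data were seen. Intervals and floors cover counting error only.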

Additional observations from a re-analysis of the deposited data

Results flagged for a closer look

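Among 478 groups of 4 libraries (239 named genes with a mean normalized count above 50, in MDSC and in MDSC-NP-Blk), 16 (3.35%) held 1 library whose gap to the nearest of the others exceeded Dixon's 95% limit as a share of the range. Chance alone passes this limit in about 1 in 20 groups. Abca1 counted 700.4 in MDSC replicate 2 and 1052 to 1115 in the other 3. Acaca counted 849 in MDSC-NP-Blk replicate 3 and 704 to 722 in the other 3. C1qc counted 775 in MDSC replicate 2 and 845 to 847 in the other 3. Casp1 counted 690.0 in MDSC-NP-Blk replicate 1 and 543 to 567 in the other 3. Cxcl2 counted 2995 in MDSC replicate 2 and 2381 to 2469 in the other 3. Fas counted 1047 in MDSC replicate 4 and 864 to 891 in the other 3. Gdf15 counted 91.7 in MDSC-NP-Blk replicate 3 and 77.8 to 79.5 in the other 3. Gm10359 counted 2569 in MDSC-NP-Blk replicate 3 and 0 in the other 3. Gm4202 counted 289 in MDSC replicate 4 and 57.1 to 86.6 in the other 3. Gm4294 counted 500.0 in MDSC-NP-Blk replicate 1 and 0 to 22.8 in the other 3. Hmox1 counted 5045 in MDSC replicate 3 and 5405 to 5469 in the other 3. Ltc4s counted 169.9 in MDSC-NP-Blk replicate 3 and 232 to 242 in the other 3. Orm1 counted 80.1 in MDSC replicate 3 and 116 to 122 in the other 3. Pvr counted 454 in MDSC-NP-Blk replicate 4 and 386 to 391 in the other 3. Srf counted 880.2 in MDSC replicate 2 and 1005 to 1025 in the other 3. Txnip counted 13039.7 in MDSC replicate 4 and 13539 to 13577 in the other 3. The widest gaps were in Gm10359, Gm4294, and Gm4202, whose sequences are nearly all shared with other transcripts, and Gm4294 and Gm10359 were at 0 in other libraries of the same group.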

How the results depend on the processing

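The 838 calls numbered 836 with DESeq2, 841 with RLE factors, 835 with upper-quartile factors, 734 with edgeR's expression filter, 866 with no filter, 855 with 8 libraries only, 851 with robust estimation, 724 with the length correction, and 618 at an adjusted p-value below 0.01. Leaving out 1 library gave 723 to 894 (285 to 352 higher, 438 to 542 lower), and leaving out MDSC-NP-Blk replicates 1 and 4, an alternative chosen after seeing the data, 672. Of the 838 genes, 749 were also called by DESeq2, 627 with the length correction, and 644 without MDSC-NP-Blk replicate 1. The counts in each direction moved by more than 1.5 times with library size alone (146 higher and 1060 lower of 1206), with a test against the fold limit (143, with 81 higher and 62 lower), and without the fold limit (6815, with 3522 higher and 3293 lower). The cause of the change with library size was not tested. Replicate numbers did not pair the samples: the correlations of deviations between same-numbered MDSC and MDSC-NP-Blk libraries were −0.039, −0.090, 0.063, and −0.083 over 8594 genes. With the number as a replicate block, 766 genes were called (310 higher, 456 lower), 723 of them among the 838. Of 127 named genes called, 16 lost the call when 1 library was left out, all with a log2 difference of at most 1.13 in size. With library size alone, 32 lost it (Ahrr, Alox5ap, Apoe, Bcl3, Calcoco1, Cebpb, Cxcl16, Dusp1, Fas, Fcgr4, Gbp2, Gsdme, H2-D1, Hilpda, Ifi204, Il1a, Il1rn, Jaml, Lif, Map1lc3a, Npc2, Oasl2, Pim3, Relb, Rplp2, Rps9, Selplg, Socs1, Sod2, Srgn, Sytl3, and Txnip) and 12 others gained one. With the length correction, 22 lost it (Acaca, Apoe, Bcl2, Ccne2, Cebpb, Elovl6, Fasn, Fcgr4, Gsdme, Il1rn, Itga4, Kif11, Map1lc3a, Polr1b, Rplp2, Rps9, Selplg, Slfn4, Srgn, Sytl3, Txnip, and Utp20) and 5 gained one. Without MDSC-NP-Blk replicates 1 and 4, 17 lost it. The log2 difference changed sign for these named genes. With library size alone, it was Casp1 −0.050, Cdc42 −0.046, Cybb −0.086, Etv5 −0.042, Hmox1 −0.26, Hsp90ab1 −0.012, Itgam −0.021, Ltf −0.10, Mbp −0.12, Myc −0.22, Prg2 −0.18, Prss34 −0.015, Rpl5 −0.23, Srebf1 −0.11, Srebf2 −0.049, Srf −0.19, Stat3 −0.010, Tlr4 −0.060, and Trp53 −0.12. With DESeq2, it was Hmox1 −0.0041. With RLE factors, it was Hmox1 −0.0038. With 8 libraries only, it was Hmox1 −0.0092. Without MDSC-NP-Blk replicates 1 and 4, it was Hmox1 −0.10 and Rpl5 −0.034. With the length correction, it was Hmox1 −0.18, Il6st 0.12, Myc −0.033, Prg2 −0.19, and Tgfbr2 0.051. Leaving out 1 library gave log2 differences of −0.032 to 0.045 for Hmox1, −0.00040 to 0.073 for Myc, −0.12 to 0.0099 for Pvr, and −0.021 to 0.079 for Rpl5. At this depth, changes of Cyp1a1, Fasl, and Il10, with at most 6 reads in any library of the comparison, were not detectable.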

Other observations

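Markers of other cell types that a bone marrow culture can hold were measured beside the main lists. Eosinophil markers summed to 1553 to 1898 CPM in MDSC and 1021 to 1236 in MDSC-NP-Blk, and 4 of 9 fell. Epx, eosinophil peroxidase, fell from 19824 ± 1878 to 11677 ± 1675 normalized counts (mean ± SD, n = 4 each), whereas Prg2, the eosinophil major basic protein, did not pass the test, at 14377 ± 749.6 and 15175 ± 786 (log2 difference 0.08, adjusted p = 0.21, edgeR; −0.18 with library size alone). Mast cell and basophil markers summed to 667 to 709 and 661 to 763 CPM, and 6 of 9 rose, with Mcpt4 at 0 in all 8 libraries. Prss34, a basophil protease, went from 6508 ± 253 to 7725 ± 224. Megakaryocyte and platelet markers summed to 319 to 387 and 369 to 417 CPM, and 6 of 8 rose. Pf4, platelet factor 4, went from 2321 ± 75.8 to 3519.8 ± 173. Monocytic markers, led by Ly6c2, Csf1r, and Ccr2, summed to 2207 to 2295 and 2413 to 2506 CPM, although 6 of 12 fell and 4 rose, with a median log2 difference of −0.27. Early myeloid progenitor markers summed to 253 to 283 and 218 to 243 CPM, and B cell markers to 35.8 to 42.3 and 25.5 to 30.6 CPM. Markers of T cells (at most 3.95), NK cells (at most 1.07), erythroid cells (at most 9.85), and stromal and endothelial cells (at most 31.6) stayed low in both groups. All CPM sums are scaled by library total alone, on which the median log2 difference of all genes was −0.29. Rises, falls, and normalized counts use TMM factors, so the scales differ. These sums hold no count of cells, since fewer cells and less RNA per cell cannot be told apart.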
